A study of Mus musculus with 6 samples.

Results

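The Egr genes encode zinc finger transcription factors that are switched on early by growth factors and stress, and the Nab genes encode corepressors that bind EGR proteins. The 4 Egr genes (Egr1, Egr2, Egr3 and Egr4) and the 2 Nab genes (Nab1 and Nab2) of the mouse were measured by RNA-Seq in primary renal tubular epithelial cells (TECs) after Sox9 knockdown. These 6 genes of the 30315 in the deposited table were chosen by their gene names, with the difference of Egr1 between the groups in these same libraries already known. The values of the 6 genes in this comparison are therefore given as a description. Where a member is said to lie past or under the threshold of the fit over all genes, this describes its place in that fit and is no independent evidence.

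The cells came from kidneys of C57BL/6 mice and were grown in culture. All 6 libraries shared hypoxia/reoxygenation (H/R), which was 6 h in glucose-free medium at 1% oxygen followed by 18 h of reoxygenation in complete medium. The groups differed in the small interfering RNA (siRNA) transfected 12 h before H/R. In the siSox9 group (n = 3) it targeted Sox9, a transcription factor of repairing tubule cells that the study places downstream of EGR1. In the siNC group (n = 3) it was the negative control. The labels do not say whether replicates came from separate cultures or animals, so p-values measure only the spread between these libraries. No library without H/R was part of the comparison, and all were collected at 1 time point.

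EGR1 is induced within minutes by hypoxia, injury or mitogens, mainly through ERK kinases and the serum response factor (SRF), and its transcript is short-lived. EGR proteins bind GC-rich sites through zinc fingers. NAB1 and NAB2 attach to EGR1, EGR2 and EGR3 but not to EGR4, and recruit the chromatin remodelling complex NuRD through its subunit CHD4. NAB2 is itself a known EGR target, so that it forms a feedback loop with EGR proteins.

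EGR factors and SRF each recognise a known sequence, and matches to both near the members' start sites are shown because these genes are described as regulated by EGR factors and by SRF. RefSeq promoter windows (GRCm38.p6, 300 bases, from 250 before to 50 after a start site) matched 4 of the 6 genes: Nab1, Nab2 and Egr4 with 1 window each, and Egr2 with 5. Each was searched on both strands for GCGTGGGCG and GCGGGGGCG, which are EGR motifs, and for the CArG box, the site of SRF. The Nab1 window (chr1:52500399-52500698, - strand) held 3 EGR motifs. They are printed below in capitals, 5′ to 3′ on the strand of the gene, each in 30 bases. Positions count from the RefSeq start site of the window. The stretches shown for Nab1 and Egr2 lie inside the longer gene spans given further below, and not before them.
Nab1, positions -141 to -133 from the start site, GCGTGGGCG on the opposite strand, chr1:52500571-52500600: cgccccgcggcCGCCCACGCcgggatctgc
Nab1, positions -109 to -101, GCGTGGGCG, chr1:52500539-52500568: cactcggccgcGCGTGGGCGggagccggag
Nab1, positions -38 to -30, GCGGGGGCG, chr1:52500468-52500497: cgcggggcgggGCGGGGGCGgcggaggtgg
The Egr2 windows held 2 different CArG boxes, shown here in capitals on the + strand.
Egr2, positions -72 to -63 of the window chr10:67537316-67537615, chr10:67537484-67537513: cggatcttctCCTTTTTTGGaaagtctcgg
Egr2, positions -72 to -63 of the window chr10:67537619-67537918, chr10:67537787-67537816: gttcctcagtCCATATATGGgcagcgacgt
Of all 32851 windows, 0.612% held GCGTGGGCG, 2.91% held GCGGGGGCG and 1.63% held a CArG box. None of these letters were found in the windows of Nab2 and Egr4. A match is a run of letters and not a measured binding site.

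Sox9, at which the siRNA was aimed, had 8.93, 8.61 and 9.07 FPKM (fragments per kilobase of exon, scaled to the size of the library) in the siSox9 libraries and 25.7, 26.5 and 25.6 FPKM in the siNC libraries, so that 34.2% of the siNC mean was left. Differences were fitted with limma on log2(FPKM + 1) over 12009 genes, those whose mean over all libraries reached 1 FPKM. The threshold was a Benjamini-Hochberg adjusted p under 0.05 over all genes tested. At this threshold 30.4% of the genes passed, 1532 higher and 2118 lower with siSox9, while with values centred on each library's median 1959 were higher and 1765 lower. Without siSox9 replicate 2 limma called 944 higher. Totals recovered from the FPKM values were 23893195 to 25725734 reads per library. All 9 general tubule markers, among them Cdh1, Epcam, Krt8, Krt18, Cdh16, Pax2 and Pax8, were present at a mean of at least 1 FPKM. Of 8 proximal tubule markers only Lrp2 reached that mean, and of 7 markers of the distal nephron and collecting duct none did.

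Egr1 (ENSMUSG00000038418, + strand of chromosome 18 from 34859823 to 34864984, GRCm38) was higher in the siSox9 libraries. It had 10.4, 8.98 and 9.80 FPKM in siSox9 replicates 1, 2 and 3, and 4.23, 4.84 and 4.88 FPKM in siNC replicates 1, 2 and 3. All siSox9 libraries lay above all siNC libraries, and the lowest siSox9 value was well clear of the highest siNC value. The means were 9.73 ± 0.721 FPKM with siSox9 and 4.65 ± 0.364 FPKM with siNC (SD, n = 3 each), a ratio of 2.09. The reads behind these values were 1201, 1022 and 1050 against 471, 524 and 544. On the log2(FPKM + 1) scale the difference was 0.92 (standard error 0.07, 95% interval 0.77 to 1.08). On the scale of limma voom, a fit to the recovered reads, it was 1.07 (standard error 0.08). The direction was therefore opposite to that of Sox9, which fell by 1.45 on the log2(FPKM + 1) scale.

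Among the 3 members that reached this minimum, Egr1, Nab1 and Nab2, only Egr1 lay past the threshold, beside 30.4% of all genes tested in either direction and 12.8% in the direction higher with siSox9. Since the difference of Egr1 was known when the genes were chosen, nothing is read from this count. The groups also did not overlap for Egr1, which held for 46.3% of the genes tested. In bulk RNA, a change in the number of cells that express a gene and a change in RNA per cell cannot be told apart. Summed markers of other cell types also differed between the groups. Of the 6 macrophage and leukocyte markers in the table, 4 had a mean of at least 1 FPKM (Cd68, Adgre1, Csf1r and Lyz2), while Ptprc, which marks all leukocytes, stayed under 1 FPKM in every library, and the list summed to 103 to 114 FPKM with siSox9 and 92.2 to 98.7 with siNC. Lyz2 made up most of this sum and was the only one of these markers past the threshold (83.4 against 71.9 FPKM). The means of Cd68 (11.8 against 10.9 FPKM) and Adgre1 (2.43 against 2.22 FPKM) were also higher with siSox9. Those of Csf1r (9.38 against 9.66 FPKM) and Ptprc (0.653 against 0.724 FPKM) were lower. For each of Cd68, Adgre1, Csf1r and Ptprc the groups overlapped. Of the 5 smooth muscle markers, 4 had a mean of at least 1 FPKM (Cnn1, Acta2, Tagln and Des). The list had sums of 680 to 733 FPKM against 762 to 804, and Cnn1 alone passed, with 24.5 against 58.6 FPKM. Sums over the 6 fibroblast markers were 6.45 to 7.95 FPKM against 7.99 to 9.09, and over the 5 endothelial markers 2.91 to 3.10 against 3.22 to 4.12, and neither Col1a1 nor Cdh5, the only markers of these lists above the minimum, passed. The endothelial marker Emcn, under that minimum, passed as lower when genes were fitted without a minimum (0.664 against 1.08 FPKM). Of 3 podocyte markers, Synpo alone reached a mean of 1 FPKM and Nphs1 was at 0 in every library, and the list summed to 4.71 to 5.56 FPKM against 6.56 to 7.16. Synpo passed as lower with siSox9 (5.18 against 6.79 FPKM). The 4 markers of injured tubules (Havcr1, Lcn2, Vcam1 and Krt20) summed to 306 to 319 FPKM against 195 to 208, mostly through Lcn2, with 194 against 94.7 FPKM. Havcr1 also passed as higher, Vcam1 passed as lower (1.57 against 2.17 FPKM), and Krt20 had 40.8 FPKM in both groups. The part of these differences in that of Egr1 was not tested.

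**Figure D1:**
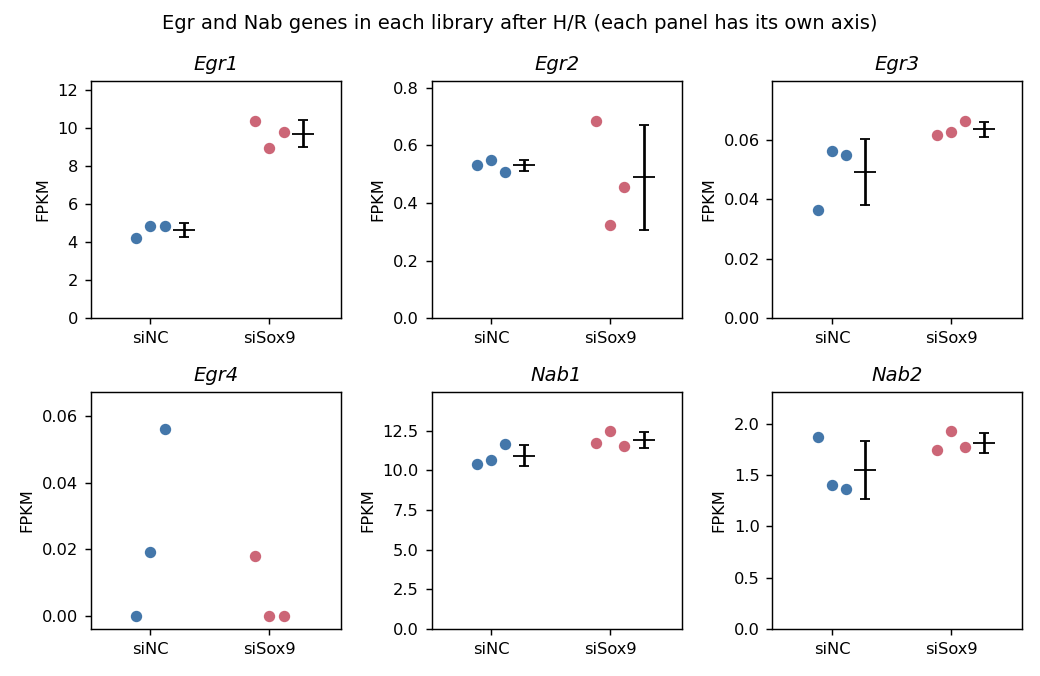
FPKM of the 6 Egr and Nab genes in each of the 3 siNC and 3 siSox9 libraries, each panel with its own linear axis; points are libraries (replicates 1, 2 and 3 from left to right) and black marks are the mean and SD of a group, left out for Egr4. The Egr1 points separate fully, with 8.98 FPKM as the lowest siSox9 value and 4.88 as the highest siNC value, while the Nab1 and Nab2 points of the groups overlap.

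The other Egr genes were far lower, and none of them lay past the threshold when all 28122 genes above 0 FPKM in at least 1 library were fitted without a minimum, where 9.6% of genes passed. Egr2 (ENSMUSG00000037868, chromosome 10 from 67535475 to 67542188), also known as Krox20 and needed for hindbrain patterning and myelin formation, had 0.686, 0.324 and 0.456 FPKM with siSox9 and 0.533, 0.548 and 0.509 FPKM with siNC. The siSox9 libraries spread on both sides of the siNC libraries, which lay close together. The reads were 60, 28 and 37 against 45, 45 and 43. On the voom scale the Egr2 difference was -0.18 with a 95% interval from -0.72 to 0.36, so that a change of the size seen for Egr1 lay outside this interval. On log2(FPKM + 1) it was -0.05, and it was 0.03 without siSox9 replicate 2, so its sign rested on that library.

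Egr3 (ENSMUSG00000033730, chromosome 14 from 70077203 to 70082614), a gene of muscle spindle development and of T cell unresponsiveness, rested on 7 reads in each siSox9 library and on 4, 6 and 6 reads in the siNC libraries. In FPKM these were 0.0618, 0.0626 and 0.0665 against 0.0366, 0.0564 and 0.0548. The groups did not overlap, but by a margin of 1 read. The voom interval of the difference ran from -0.68 to 1.41, a range that holds both 0 and the Egr1 difference on the same scale, so that no change was detectable at this depth. Egr4 (ENSMUSG00000071341, chromosome 6 from 85511121 to 85513589), a member expressed mostly in brain and germ cells, was found with 1, 0 and 0 reads in the siSox9 libraries and 0, 1 and 3 reads in the siNC libraries. Every library was at or under 3 reads, taken as the smallest signal, so no difference is given for Egr4.

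Nab1 (ENSMUSG00000002881, - strand of chromosome 1 from 52457294 to 52500679), whose promoter window carries the EGR motifs printed above, was the most abundant member. It had 11.8, 12.5 and 11.5 FPKM with siSox9 and 10.4, 10.7 and 11.7 FPKM with siNC. The highest siNC library lay above the lowest siSox9 library, so the groups overlapped. The means were 11.9 ± 0.491 and 10.9 ± 0.665 FPKM (SD, n = 3 each). On the log2(FPKM + 1) scale the Nab1 difference was 0.12 with a 95% interval from -0.0015 to 0.24, under the threshold. On the voom scale the interval was 0.0046 to 0.25, before any adjustment for the number of genes. Both intervals exclude a change of the size of the Egr1 difference.

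Nab2 (ENSMUSG00000025402, - strand of chromosome 10 from 127660918 to 127668568), the corepressor that EGR proteins induce in other cells, had 1.74, 1.93 and 1.78 FPKM with siSox9 and 1.88, 1.41 and 1.37 FPKM with siNC. Replicate 1 of siNC stood with the siSox9 libraries, while replicates 2 and 3 lay below all of them. The reads were 132, 144 and 125 against 137, 100 and 100. The Nab2 difference was 0.15 on the log2(FPKM + 1) scale (standard error 0.09, 95% interval -0.06 to 0.36). Without siNC replicate 1 it was 0.24 and lay past the threshold, so the place of Nab2 turned on that library.

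Nab2 overlaps 2 other measured genes on the opposite strand, and the sources used here do not say whether reads were counted by strand. Its 3′ end shares 40 bases with Stat6, the signal transducer of interleukin-4, and its longest GENCODE M21 model shares 1668 bases of genomic span with Nemp1, a gene of the inner nuclear membrane. The reads of Stat6 were 2846, 2734 and 2529 in the siSox9 libraries against 2698, 2306 and 2300 in the siNC libraries. As for Nab2, siNC replicate 1 was the highest of its group and lay among the siSox9 libraries. Nemp1 had 384, 437 and 340 reads against 423, 374 and 359, and its groups overlapped. Whether reads of Stat6 contribute to the Nab2 values was not tested.

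**Figure D2:**
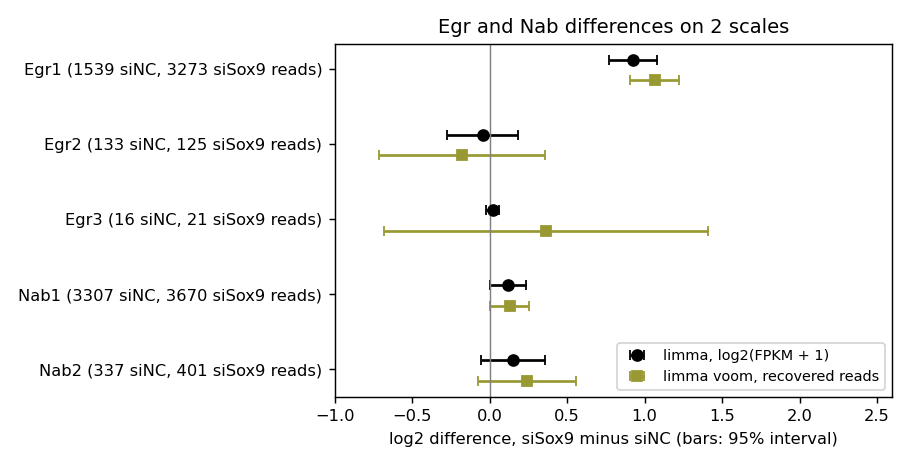
Difference between siSox9 and siNC (log2, siSox9 minus siNC) for 5 of the 6 genes, as limma on log2(FPKM + 1) (circles) and as limma voom on the recovered reads (squares); bars are 95% intervals and the labels give the summed reads of each group. Egr1 sits at 0.92 and 1.07, while the intervals of Egr2, Egr3 and Nab2 include 0 on both scales, and that of Nab1 begins at -0.0015 and 0.0046.

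The order of levels in FPKM, which is per exon length, was Nab1, Egr1, Nab2, Egr2, Egr3 and Egr4 from highest to lowest in 5 of the 6 libraries. In siNC replicate 3 Egr4 stood above Egr3, both at single-digit reads, so these 2 cannot be ordered. The ranges of all other neighbours in the order did not overlap within either group. Egr1 supplied 88.1%, 88.6% and 88.7% of the summed FPKM of the 4 Egr genes in the siNC libraries, and 93.1%, 95.9% and 94.9% in the siSox9 libraries. The Egr1 transcript was thus the main Egr transcript in either group.

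Because NAB proteins act on EGR proteins, the level of Egr1 was also set against that of both corepressors in the same library. The ratio of Egr1 FPKM to the summed FPKM of Nab1 and Nab2 was 0.344, 0.401 and 0.374 in the siNC libraries and 0.771, 0.623 and 0.736 in the siSox9 libraries. Every siSox9 library lay above every siNC library, and the means were 0.373 ± 0.0287 and 0.710 ± 0.0772 (SD, n = 3 each). The ratio contains the Egr1 values already given, so it adds a scale and no further evidence. The ratio of Nab1 to Nab2 FPKM was 7.22 ± 1.52 with siNC and 6.57 ± 0.154 with siSox9, and the groups overlapped.

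**Figure D3:**
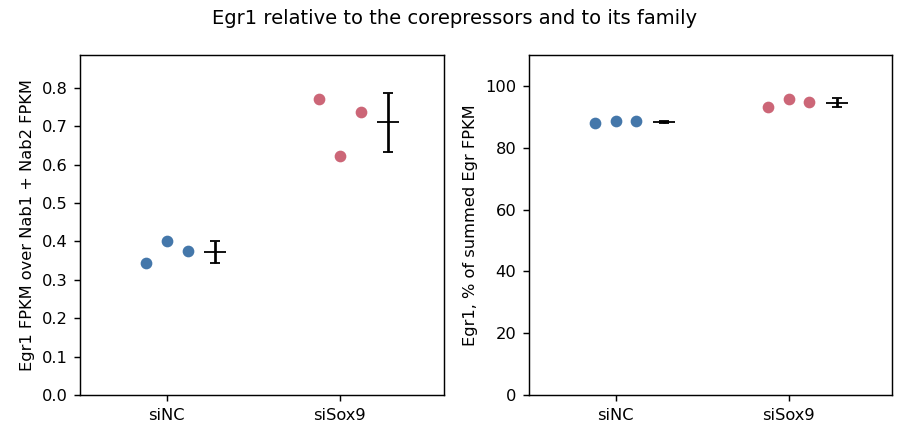
Left, the ratio of Egr1 FPKM to the summed FPKM of Nab1 and Nab2 in each library; right, Egr1 as a percent of the summed FPKM of the 4 Egr genes. Points are libraries and black marks are the mean and SD (n = 3 per group); the left ratio is 0.344 to 0.401 with siNC and 0.623 to 0.771 with siSox9.

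Of 18 genes from Ras and Raf through ERK to SRF and its cofactors, through which Egr genes are switched on, 4 passed the threshold (22.2%, beside 30.4% of all genes tested). Each of these was lower with siSox9, among them Rps6ka3, Mkl2 and Srf, but with median-centred values 2 genes of the list were higher and 3 lower, and without siNC replicate 1 there were 3 higher and 4 lower. The list had a median log2 difference of -0.03, against -0.01 over all genes tested. Rps6ka3, which encodes the ERK-activated kinase RSK2, had 7.67 ± 0.182 FPKM with siSox9 and 12.2 ± 0.284 with siNC (SD, n = 3 each), a log2 difference of -0.61 (adjusted p = 8.96e-05 from limma). Mkl2, a cofactor of SRF, fell by 0.21 (adjusted p = 0.00295 from limma). Srf itself had a log2 difference of -0.16 (adjusted p = 0.038 from limma). Mapk3, which encodes the kinase ERK1, had a difference of -0.03 and did not pass. These are transcript levels, and no phosphorylation was measured.

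The NuRD subunits that NAB proteins recruit were all expressed. Of the 13 genes tested, 3 passed (23.1%, beside 30.4% of all genes tested). Gatad2b was higher by 0.15 (adjusted p = 0.041 from limma). This call was lost with the replicate block, without a minimum on FPKM, and without siSox9 replicate 1 or 2 or siNC replicate 2 or 3. The methyl-CpG binding subunits Mbd3 and Mbd2 fell by 0.17 and 0.14 (adjusted p = 0.00981 and 0.0168 from limma). The call of Mbd2 was lost with voom without a minimum, and without siSox9 replicate 1 or 3 or siNC replicate 3. The median was -0.04. Chd4, the subunit that binds NAB2, had 55.4 ± 1.90 FPKM with siSox9 and 56.7 ± 1.45 with siNC (SD, n = 3 each), a difference of -0.03 that did not pass. When FPKM were rescaled to a common sum per library (TPM), limma called 0 of the 13, with 3 at an unadjusted p under 0.05, and voom on the reads called 5. Without siSox9 replicate 1 limma called 1.

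Genes described as direct EGR1 targets, most of them in other cells, passed the threshold in 12 of 20 cases. Of these, 9 were higher and 3 lower with siSox9, beside 30.4% of all genes tested. Sox9, at which the siRNA was aimed and which the study itself names as an EGR1 target, is counted among the 12 and the 3 lower. The list was put together with some of these results known, and its median log2 difference was 0.12, against -0.01 over all genes. Cdkn1a, the cell cycle inhibitor p21, had 294 ± 2.67 FPKM with siSox9 and 230 ± 2.68 with siNC (SD, n = 3 each), a log2 difference of 0.36 (adjusted p = 0.000192 from limma). Pdgfa, a growth factor for mesenchymal cells, rose by 0.31 (adjusted p = 0.0113 from limma). Other higher genes were Tnf, Cd44, Gdf15, Trp53, Pdgfb and F3, with log2 differences from 0.29 for Tnf down to 0.11 for F3. Of these, F3 and Pdgfb lay nearest the threshold (adjusted p = 0.0484 and 0.0293 from limma). All of these changes were smaller than that of Egr1.

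The lower genes of this list included Sox9, which is the target of the siRNA, and Fn1. Fn1, which encodes the matrix protein fibronectin, had 954 ± 14.6 FPKM with siSox9 and 1589 ± 50.0 with siNC (SD, n = 3 each), a log2 difference of -0.74 (adjusted p = 5.94e-05 from limma). Tgfb1, Icam1, Atf3 and Plau had differences between -0.01 and 0.06 and did not pass. Rescaled to TPM, 7 genes of the list were higher and 2 lower, while median-centred values gave 11 and 3, and quantile normalization gave 8 and 3. The fit without a minimum on FPKM called 7 of 24, 4 higher and 3 lower, so most of the higher calls were lost there. Macrophages also express Tnf. Of the macrophage markers given above, Lyz2, Cd68 and Adgre1 had higher means with siSox9 and Csf1r and Ptprc had lower means. Only Lyz2 passed, and the part of these markers in the Tnf difference was not tested.

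Of 10 tested genes described as controlled by EGR2 or EGR3 elsewhere, 1 was higher and 4 were lower (50% in all, beside 30.4% of all genes tested). Epha4, a hindbrain target of EGR2 that encodes an ephrin receptor, had a log2 difference of 0.33 (adjusted p = 0.000364 from limma). Id3, an inhibitor of helix-loop-helix factors induced by EGR factors in thymocytes, had 36.9 ± 1.52 FPKM with siSox9 and 47.8 ± 0.901 with siNC (SD, n = 3 each), a log2 difference of -0.36 (adjusted p = 0.000612 from limma). Arc fell by 0.34, Id2 by 0.31 and Itch by 0.24, with adjusted p = 0.00131, 0.00154 and 0.00168 from limma. The median over the list was -0.004 on the log2 scale. Centring on the median gave 3 higher and 4 lower.

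Of 23 early response genes outside the Egr family with enough FPKM, 3 passed as higher and 5 as lower, and the median was -0.06. These were 34.8% of the list, near the 30.4% of all genes tested. Btg2, an antiproliferative gene, came closest to Egr1 with 114 ± 3.15 FPKM with siSox9 and 66.7 ± 1.06 with siNC (SD, n = 3 each), a log2 difference of 0.77 (adjusted p = 4.82e-05 from limma). Ier3 rose by 0.25 (adjusted p = 0.00292 from limma), and Junb by 0.17 (adjusted p = 0.0315 from limma), which was lost with TPM, with quantile normalization, without a minimum on FPKM, and without siSox9 replicate 1 or 2 or siNC replicate 2 or 3. Dusp1, a phosphatase that inactivates MAP kinases, fell by 0.37, Ier5 by 0.34 and Klf4 by 0.32 (adjusted p = 0.00217, 0.0035 and 0.025 from limma). The Klf4 call was lost without a minimum on FPKM and without siSox9 replicate 1 or 2 or siNC replicate 1 or 3. Fos, the usual companion of Egr1 in the early response, had 1.77 ± 0.206 FPKM with siSox9 and 2.25 ± 0.351 with siNC and did not pass. The number of genes that passed was 5 without siSox9 replicate 1, 4 without siSox9 replicate 2 and 4 without siNC replicate 3.

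**Figure D4:**
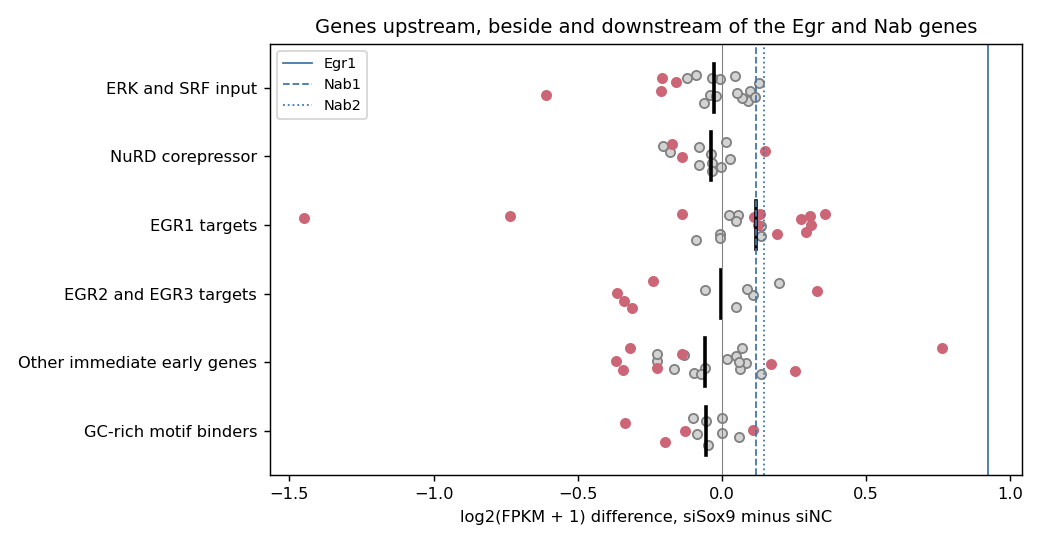
Difference on log2(FPKM + 1) between siSox9 and siNC for each tested gene of 6 lists around the Egr and Nab genes; filled red points passed limma's threshold, grey points did not, and black bars are list medians. Vertical lines mark Egr1 (0.92), Nab1 (0.12) and Nab2 (0.15); no listed gene reaches the Egr1 line, Btg2 comes nearest at 0.77, and the lowest point is Sox9 at -1.45.

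Genes with a pattern most like each member over the 6 libraries were sought by Pearson's r of log2(FPKM + 1) with the 12008 other genes tested, and named where they also passed the threshold in the same direction. For Egr1 these were Phtf1 (r = 0.999), Insig1 (r = 0.997) and Gtpbp3 (r = 0.996). Insig1, a sterol-regulated protein of the endoplasmic reticulum, had a log2 difference of 0.60, and Phtf1 and Gtpbp3 had 0.27 and 0.22. For Nab1 they were Tkfc, Gm9826 and Gas6, with r from 0.956 to 0.974, and for Nab2 they were Gm23368, Tmem94 and Plod2, with r from 0.916 to 0.931. Gm23368 rested on 1 to 6 reads per library. The 6 points fall into 2 groups that share the siRNA, and the names were picked from all genes tested, so these values are a description only.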

How the data were processed

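RNA-Seq was performed on 6 libraries of mouse primary TECs. The values are FPKM for each gene in each library, as deposited by the authors. The submitters' processing notes name Bowtie2 2.2.3, HISAT2 2.1.0, TopHat2 and mm9 with no role given. The gene positions in the table are those of GRCm38 (93.3% of the genes found in GENCODE M21 lie at the same position there), and the counting tool is not given in the sources used here. Columns not headed siNC were taken as the siSox9 libraries, the other group in the labels.

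Whole reads were recovered with GENCODE M21 exon lengths (27924 genes whole in all libraries, within 0.02 reads). One read on 1 kb of exons was 0.0389 to 0.0419 FPKM, and intervals cover the spread between these libraries. Differences were fitted with limma 3.58.1 (R 4.3.3; lmFit, eBayes with trend) on log2(FPKM + 1), which understates changes of genes with low FPKM. Members under a mean of 1 FPKM come from the same fit without that minimum. The fit, the recovery of reads and the motif search were tested on simulated data. Tables and figures were made in Python 3.11.15 with pandas 2.3.3 and matplotlib 3.10.9.

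The members and gene lists were chosen with earlier results of these data known. Genes named are the 6 members, Sox9 and genes within 10 kb of a member. From each list they are up to 3 rises and 3 falls past the threshold without overlap. For each of Egr1, Nab1 and Nab2 they are the 3 most alike in pattern among genes past the threshold in the same direction. Other genes were named after their values were seen, and some genes of the lists are counted but not reported here by name. Promoter windows were found for 72.0% of the genes tested, under 80%, so genes were not compared by motif. Alternatives were a minimum of 5 FPKM or none, a pseudocount of 0.1, a replicate block, leaving out each library, limma voom on the reads, and values rescaled to TPM, centred on the median or quantile-normalized.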

Additional observations from a re-analysis of the deposited data

How the results depend on the processing

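Over the 15 alternatives the log2 difference was 0.87 to 1.07 for Egr1 and 0.09 to 0.16 for Nab1, given as a description since the genes were chosen with these values known. Leaving out 1 library at a time gave 0.87 to 0.98 for Egr1, -0.14 to 0.03 for Egr2, 0.01 to 0.02 for Egr3, 0.09 to 0.16 for Nab1 and 0.10 to 0.24 for Nab2; the sign of Egr2 turned without siSox9 replicate 2 (0.034), and Nab2 lay past the threshold without siNC replicate 1 (0.24). It also gave 2424 to 3654 genes called, 944 to 1565 higher and 1480 to 2089 lower, and per list 3 to 7 (ERK and SRF input), 1 to 4 (NuRD), 8 to 12 (EGR1 targets), 5 to 5 (EGR2 and EGR3 targets), 4 to 7 (immediate early genes) and 2 to 3 (GC-rich binders). With TPM 1332 genes were lower, and 0 NuRD genes (3 at an unadjusted p under 0.05 with limma), 5 immediate early genes and 1 GC-rich binder were called. With a minimum of 5 FPKM 1376 genes were lower. Without a minimum 2700 genes were called in all, with 7 EGR1 targets, 4 immediate early genes and 2 GC-rich binders. Voom on the reads called 5 NuRD genes, and 2 GC-rich binders without a minimum. The causes were not tested, except that fewer or more genes tested change the adjustment.

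With the replicate block 3262 genes were called, 2 GC-rich binders among them, and no member changed its side of the threshold. Same-numbered libraries had correlations of deviations of 0.0649, -0.0504 and 0.00784, and 2 of 6 libraries correlated best with their own number, so the numbers were not taken to pair the samples. Depth limits Egr3 and Egr4, at 7 reads or fewer per library.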

Other observations

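Other zinc finger factors that bind GC-rich sites were measured beside the Egr genes. Of 11 tested, 1 was higher and 3 were lower with siSox9 (36.4%, near the 30.4% of all genes tested), with a median log2 difference of -0.05. Zfp281 had 12.1 ± 0.127 FPKM with siSox9 and 15.5 ± 0.838 with siNC (SD, n = 3 each), a log2 difference of -0.33 (adjusted p = 0.00165 from limma). Sp3 fell by 0.20 (adjusted p = 0.0082 from limma), a call lost with TPM. Sp1 fell by 0.13 and Zbtb7a rose by 0.11 (adjusted p = 0.0454 and 0.0442 from limma). Both calls were lost with TPM, with the replicate block and without a minimum on FPKM. That of Sp1 was also lost with median-centred and quantile-normalized values and without any 1 library. That of Zbtb7a was also lost with voom without a minimum, and without siSox9 replicate 1 or 2 or siNC replicate 2 or 3. The list had 2 calls without siSox9 replicate 1 or 2 and without siNC replicate 2 or 3. Wt1, whose zinc fingers recognise nearly the same site as those of EGR1, had 0.634 ± 0.116 FPKM with siSox9 and 0.804 ± 0.111 with siNC, under the minimum of 1 FPKM.

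Among genes within 10 kb that do not overlap a member, none passed as higher with siSox9. Ado lies 2323 bases from Egr2 and had 9.40 ± 0.410 FPKM with siSox9 and 9.43 ± 0.141 with siNC (SD, n = 3 each). Fbxo41, near Egr4, and Gm16230, near Nab2, were under 0.1 FPKM in every library. Gm5976, a processed pseudogene 2555 bases from Nab1, had 0.039, 0 and 0.084 FPKM with siSox9 and 0.202, 0.208 and 0.162 with siNC, from 1, 0 and 2 reads against 5, 5 and 4. It passed as lower in the limma fit without a minimum (log2 difference -0.19, adjusted p = 0.0286).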
